A study of Mus musculus with 20 samples.

Results

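The 10 genes of phospholipase A2 and eicosanoid metabolism described here were followed in the terminal ileum of mice fed a control or a tryptophan-deficient diet. They are Pla2g2a, Pla2g5, Pla2g4a, Ptgs1, Ptgs2, Ptges, Hpgds, Ltc4s, Alox5 and Alox15, taken by name from a gene table of 35204 genes, and all 10 were among the 16306 genes tested. RNA was sequenced from 20 female C57BL/6 mice that were 7 weeks old when put on diet for 3 weeks, with 5 mice in each of 4 groups. All 20 libraries were used, although the study's heatmaps show fewer mice without saying which were left out. CD mice received an amino acid control diet and TDD mice the same diet without tryptophan, and both stayed specific pathogen-free (SPF). CD+ABX and TDD+ABX mice received the same diets together with ampicillin, vancomycin, gentamycin, metronidazole and neomycin, a cocktail (ABX) given in sweetened drinking water to remove the microbiota. The sample was a 0.5 cm piece of whole ileum cut 2 cm from the cecum, so epithelium, immune cells and muscle were read together. In such bulk tissue, fewer cells of a type and less RNA per cell cannot be told apart.

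Eicosanoids are short-range lipid signals made from arachidonic acid. Phospholipases A2 release this fatty acid from membrane phospholipids, cyclooxygenases turn it into prostaglandin H2, and terminal synthases shape the prostaglandins, while lipoxygenases start the leukotrienes and hydroxy fatty acids. In the small intestine, secreted phospholipases A2 are known as antibacterial proteins of Paneth cells, prostaglandin E2 supports epithelial repair, and tuft cells are a known source of leukotrienes and prostaglandin D2.

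Levels are given as CPM, a gene's counts relative to the library total after TMM scaling, and in the order of mice 1 to 5 of a group. A gene passed if q, its p-value after Benjamini-Hochberg adjustment over all genes tested, was under 0.05 in edgeR's quasi-likelihood test, and was called if its fold change was also at least 2. Total counts ranged from 36676963 to 58662617 per mouse. Nothing in the labels says how mice were housed, so the p-values measure the spread between these mice. General enterocyte markers such as Vil1 and Epcam were high in all groups, with means of at least 3620 and 1700 CPM. The ileum-specific Fabp6, the ileal bile acid binding protein, and Slc10a2, the ileal bile acid transporter, were low in SPF mice, with 0.238 to 3.91 and 1.38 to 8.8 CPM, and passed higher with ABX on both diets (Fabp6 up to 144 CPM and Slc10a2 up to 86 CPM). Enterocyte markers shifted both ways with ABX: of 8, 3 passed higher and 2 lower on CD, and 2 higher and 2 lower on TDD. Mean Sis was 6840 CPM in CD and 3360 CPM in CD+ABX mice, and mean Apoa4 was 6690 and 2190 CPM. Smooth muscle markers varied from 509 to 2640 CPM in sum and B cell and follicle markers from 3.13 to 179 CPM between mice. No marker of either list passed the test in a comparison, although all 8 B cell and follicle markers had an unadjusted p under 0.05 for ABX on CD and 7 of the 8 for diet with ABX. For diet in SPF mice none of the 8 had one, but the median B cell and follicle sum was 7.24 CPM in CD and 120 CPM in TDD mice, and 4 TDD mice and 2 CD mice stood at 77.6 CPM or more.

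In SPF mice, 4 of the 10 genes passed the test for diet, 2 higher and 2 lower on TDD, where 14.4% of all genes tested passed (6.65% higher and 7.71% lower). The 2 that were higher, Pla2g2a and Pla2g5, were also called, where 1.83% of all genes were called. With ABX, none of the 10 genes passed for diet, where 1.64% of all genes did. For ABX itself, 2 of the 10 genes passed on CD (12.6% of all genes) and none on TDD (15.4% of all genes). The median log2 fold change over the 10 genes was -0.03 for diet in SPF mice, -0.00 for diet with ABX, -0.14 for ABX on CD and -0.19 for ABX on TDD, beside 0.01, -0.00, -0.00 and -0.03 over all genes tested. These 4 comparisons share groups (CD mice serve as controls for diet and for ABX), so each is given on its own below.

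**Figure D1:**
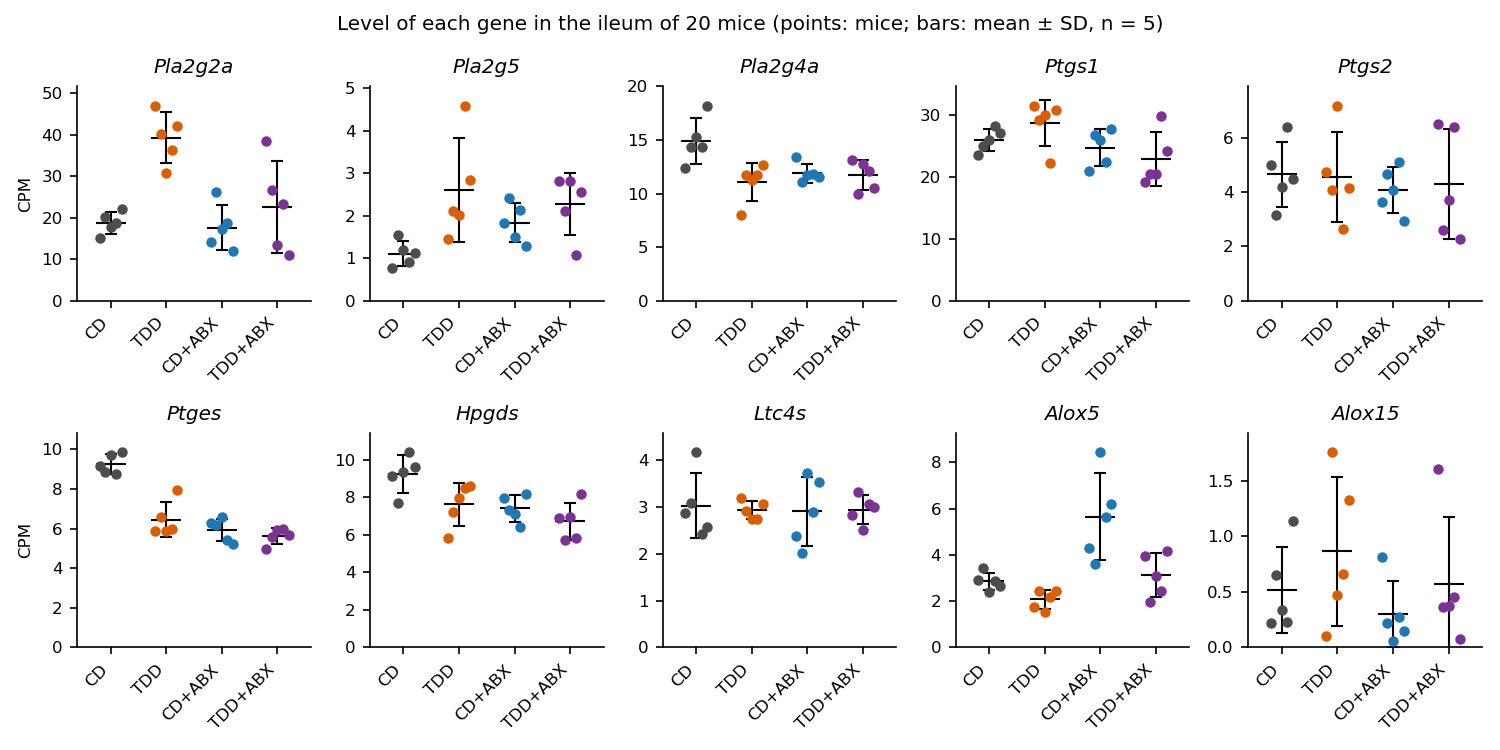
Level of each of the 10 genes in CPM (vertical axes, each from 0) in the 5 mice of each group, with bars for the mean ± SD. Pla2g2a lies at 30.7 to 47 CPM in TDD mice, above all CD mice at 15.1 to 22.1 CPM, and Ptges is highest in CD mice.

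**Figure D2:**
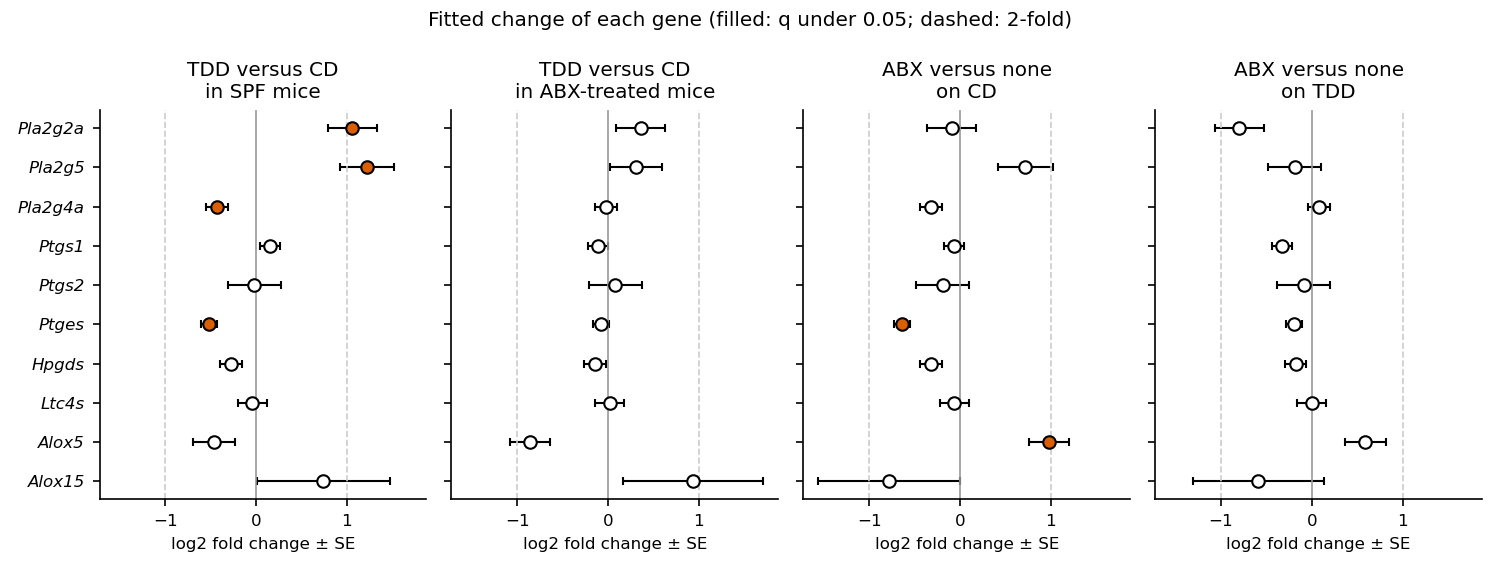
Fitted log2 fold change ± SE (horizontal axis) of each gene in the 4 comparisons, with filled points for q under 0.05 and dashed lines at a fold change of 2. Filled points stand at Pla2g2a, Pla2g5, Pla2g4a and Ptges for diet in SPF mice and at Ptges and Alox5 for ABX on CD, and none stand in the other 2 panels.

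Pla2g2a encodes the secreted group IIA phospholipase A2, a bactericidal enzyme, but C57BL/6 mice are known to carry a natural frameshift in it, at a locus named Mom1 as a modifier of intestinal tumors. The gene (ENSMUSG00000058908.14, GRCm38 chromosome 4, 138831857 to 138835186, plus strand) is annotated as a polymorphic pseudogene, and the transcript models differ at the frameshift. Pla2g2a-201, the model annotated as protein coding, leaves a gap of 4 bases in an exon (chr4:138833013-138833016) and so keeps a reading frame of 145 codons. In Pla2g2a-203 and Pla2g2a-202 these 4 bases are read, and the same start codon leads to a TGA stop after 68 codons. The stretches below are shown because they are where the intact and the shifted frame part. They are RNA-sense sequences of GENCODE M21, written 5′ to 3′, with 30 bases on either side and capitals for the 4 bases that Pla2g2a-201 leaves out.
Pla2g2a-201: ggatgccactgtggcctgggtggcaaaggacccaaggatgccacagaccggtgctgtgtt
Pla2g2a-203: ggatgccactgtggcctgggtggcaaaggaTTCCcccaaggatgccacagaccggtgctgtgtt
Pla2g2a-202: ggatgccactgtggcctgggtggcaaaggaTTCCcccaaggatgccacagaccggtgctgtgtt

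Nearly all Pla2g2a counts fell on models that hold the 4 bases or do not reach them. Over the 20 mice, Pla2g2a-203 took 64.48% of the counts of the gene, Pla2g2a-202, a processed transcript, 17.82%, and Pla2g2a-204, annotated as a retained intron that starts past the frameshift, 17.37%. Pla2g2a-201, with the intact frame, took 0.33%, or 75.6 of the estimated counts.

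Pla2g2a was about 2 times as high in SPF mice fed TDD as in those fed CD. CD mice had 15.1, 20.2, 17.9, 18.7 and 22.1 CPM (mean 18.8 ± 2.59, SD, n = 5), and TDD mice had 47, 40.1, 30.7, 36.3 and 42 CPM (39.2 ± 6.1). Every TDD mouse lay above every CD mouse. Such separation was found for 2 of the 10 genes, Pla2g2a and Ptges, and for 9.58% of all genes tested. On the log2 scale the change was 1.06 ± 0.27 (SE; edgeR's quasi-likelihood test, q = 0.013), a fold change of 2.09. It passed in each of 20 fits that left out 1 mouse (0.99 to 1.12) and under each of 12 other settings (1.04 to 1.08). Of the 12, 1 could hardly differ, namely counts summed over transcripts, since these sums equalled the gene counts.

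The 3 main transcripts of Pla2g2a each had a higher mean on TDD in SPF mice in TPM, a relative level that also accounts for transcript length. These models share exons and reads were split between them, so they are not separate results. Pla2g2a-203 stood at 26.7 ± 4.51 TPM in CD and 44.8 ± 8.6 TPM in TDD mice (SD, n = 5). Pla2g2a-202 stood at 11.2 ± 2.21 and 32.3 ± 5.32 TPM, and Pla2g2a-204 at 10.1 ± 3.47 and 24.8 ± 13.4 TPM. The share of Pla2g2a-203 in the counts of the gene was 69.5 ± 7.95% in CD, 59 ± 9.39% in TDD, 67.5 ± 12.6% in CD+ABX and 70 ± 7.02% in TDD+ABX mice, and the ranges of all groups overlapped. Pla2g2a-201 had a mean of 0.254 TPM or less in every group.

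With ABX, Pla2g2a did not pass the test for diet. CD+ABX mice had 14.2, 26.3, 17.2, 18.7 and 11.9 CPM (17.6 ± 5.51), and TDD+ABX mice had 38.4, 26.7, 13.4, 23.4 and 11.1 CPM (22.6 ± 11). The TDD+ABX mice spread over the whole range of the 2 CD groups and beyond, with 1 mouse in the range of SPF mice on TDD. The log2 fold change for diet was 0.36 ± 0.27 (q = 0.574), and without TDD+ABX mouse 1 it was 0.08. The interaction, the diet effect with ABX less the one in SPF mice, was -0.70 ± 0.38 on the log2 scale and did not pass (q = 0.622).

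On TDD, mean Pla2g2a was lower with ABX than in SPF mice, but just short of the threshold. The difference was -0.80 ± 0.27 on the log2 scale (edgeR's quasi-likelihood test, q = 0.051), with an overlap of 1 TDD+ABX mouse with TDD mice. It passed under 7 of 12 other settings, among them DESeq2, limma-voom and limma on TPM (q from 0.0201 to 0.109 over the 12), and in 3 of 20 fits that left out 1 mouse (without CD+ABX mouse 2, without CD+ABX mouse 5 and without TDD+ABX mouse 1, where it was -1.06 with q = 0.0147). On CD, ABX left a log2 fold change of -0.09 ± 0.27 (q = 0.877).

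Paneth cells, the usual source of Pla2g2a in the small intestine, were followed by 8 markers. Their summed level was 11300 to 18300 CPM in CD, 15100 to 17800 in TDD, 10800 to 18300 in CD+ABX and 8880 to 16100 CPM in TDD+ABX mice, and none of the 8 was at 0 in all mice. Of the 8, 1 passed for diet in SPF mice, namely the matrilysin gene Mmp7, which was also higher on TDD (log2 fold change 0.84 ± 0.23, q = 0.0184) and lower with ABX on TDD (-0.77 ± 0.23, q = 0.0288). Pla2g2a equalled 0.131 ± 0.0173% of the summed Paneth cell markers in CD mice, 0.246 ± 0.0469% in TDD, 0.126 ± 0.0402% in CD+ABX and 0.175 ± 0.0583% in TDD+ABX mice (SD, n = 5), and the lowest TDD mouse (0.193%) lay above the highest CD mouse (0.158%). For diet with ABX, 1 marker passed lower, the defensin gene Defa17 (-0.58 ± 0.13, q = 0.0359). The part of Paneth cells in the change of Pla2g2a was not tested.

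Pla2g5 encodes the secreted group V phospholipase A2, known from macrophages, smooth muscle and endothelium. The gene (ENSMUSG00000041193.15, chromosome 4, 138799244 to 138863482, minus strand) runs over the whole of Pla2g2a on the opposite strand, which lies in 1 of its introns. The closest Pla2g5 exons end at 138819257 and start at 138859065, and the 2 genes share 0 exonic bases. Only 2 of the 9 Pla2g5 transcripts, Pla2g5-201 and Pla2g5-204, span Pla2g2a, with 7.4 and 0.0 estimated counts over all 20 mice. Pla2g5-203, which lies wholly to the side of lower coordinates, took 92.47% of the counts. Leaving out the 2 spanning transcripts left the call of Pla2g5 as it was. At so few counts this fit, 1 of the 13 other settings of Pla2g5, could hardly change the call. Reads of unspliced Pla2g5 RNA over Pla2g2a exons could not be told from Pla2g2a reads, since strand use is not given in the sources used here.

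**Figure D3:**
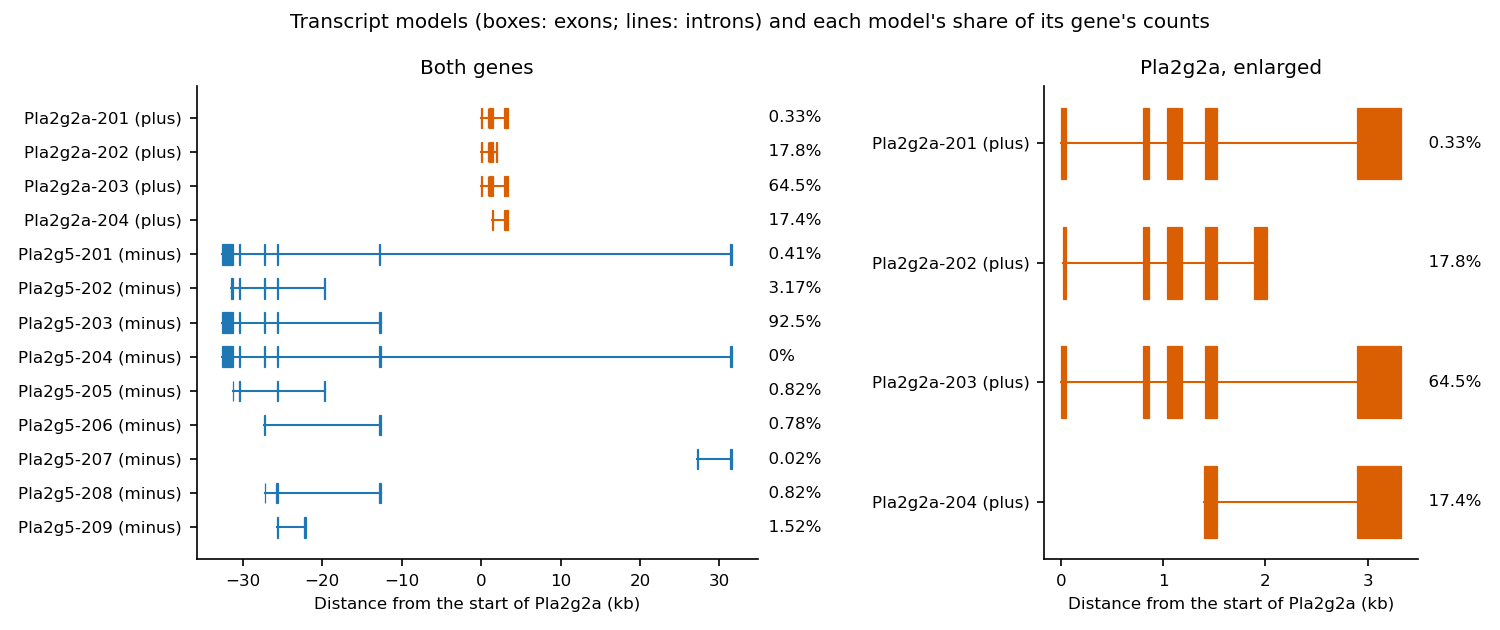
Transcript models of Pla2g2a and Pla2g5 by distance from the start of Pla2g2a in kb (horizontal axis), with boxes for exons, lines for introns and, at the right, the percent of the counts of the gene over 20 mice. Pla2g2a lies in an intron of 2 Pla2g5 models that took 0.41% and 0.0% of its counts, and Pla2g5-203 with 92.47% lies wholly to the left of it.

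Pla2g5 was low, and higher on TDD in SPF mice. CD mice had 0.771, 1.56, 1.2, 0.917 and 1.12 CPM (1.11 ± 0.3), and TDD mice had 1.46, 2.11, 2.01, 4.59 and 2.85 CPM (2.6 ± 1.22). Only TDD mouse 1 fell into the range of the CD mice. This gave a log2 fold change of 1.22 ± 0.30 (edgeR's quasi-likelihood test, q = 0.01), and it passed in each of 20 fits that left out 1 mouse, from 0.92 without TDD mouse 4 to 1.37 without TDD mouse 1. It did not pass on gene TPM, with 0.41 on log2(TPM + 1) and 0.62 on log2(TPM + 0.1), and q was 0.00119 to 0.317 over 13 other settings. The main transcript, Pla2g5-203, made up 63.67% of gene TPM and 92.47% of the counts. It stood at 0.657 ± 0.174 TPM in CD and 1.65 ± 0.652 TPM in TDD mice. Most of the counts tested above are its own, and it was not tested separately.

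B cell and follicle markers differed between these mice. In TDD mice 1 to 5 their sum was 5.47, 120, 83.5, 179 and 141 CPM, the same order as that of Pla2g5. In CD mice 1 to 5 the sum was 7.24, 77.6, 116, 6.33 and 5.22 CPM. Their Pla2g5 was at 0.771, 1.56, 1.2, 0.917 and 1.12 CPM, which is not the same order. Nor did the order hold with ABX. TDD+ABX mouse 3, with a sum of 6.22 CPM, had 2.81 CPM of Pla2g5, and mouse 5, with a sum of 125 CPM, had 2.56 CPM. The part of these cells in the change of Pla2g5 was not tested.

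With ABX, the means of Pla2g5 lay between those of the 2 SPF groups on either diet. CD+ABX mice had 1.83, 2.42, 1.51, 2.14 and 1.3 CPM (1.84 ± 0.454), and TDD+ABX mice had 2.81, 2.12, 2.81, 1.09 and 2.56 CPM (2.28 ± 0.72). The log2 fold change for diet was 0.31 ± 0.29 (q = 0.674), for ABX on CD 0.72 ± 0.30 (q = 0.124) and for ABX on TDD -0.19 ± 0.29 (q = 0.689). The interaction was -0.91 ± 0.42 and did not pass (q = 0.532).

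Pla2g4a encodes the cytosolic phospholipase A2 that releases arachidonic acid upon calcium signals, and it lies 139 kb from Ptgs2 on chromosome 1 (149829618 to 149961290, minus strand). In contrast to Pla2g2a and Pla2g5, Pla2g4a was lower on TDD in SPF mice. CD mice had 12.4, 14.3, 15.3, 14.3 and 18.2 CPM (14.9 ± 2.13), and TDD mice had 7.98, 11.7, 11.3, 11.7 and 12.7 CPM (11.1 ± 1.82). The groups met only at CD mouse 1 and TDD mouse 5. Pla2g4a had a log2 fold change of -0.43 ± 0.12 (edgeR's quasi-likelihood test, q = 0.0189), a change that passed but stayed under 2-fold. It was lost without CD mouse 5 (q = 0.0569) and in a fit of the 2 groups alone (q = 0.0667), and q was 0.00445 to 0.0667 over 12 other settings. CD+ABX mice had 11.1 to 13.4 CPM and TDD+ABX mice 10 to 13.1 CPM, with log2 fold changes of -0.02 ± 0.12 for diet (q = 0.948), -0.32 ± 0.12 for ABX on CD (q = 0.0742) and 0.08 ± 0.12 for ABX on TDD (q = 0.683). The sum of 7 fibroblast and endothelium markers, cells that also express Pla2g4a, was 244 to 379 CPM in CD and 231 to 292 CPM in TDD mice, and Pla2g4a equalled 5.16 ± 1.04% of it in CD and 4.26 ± 0.506% in TDD mice, with overlap. Of the 7, 1 passed for diet in SPF mice, the collagen gene Col1a1, which was lower on TDD with no overlap (36.1 to 61 against 21.8 to 26.8 CPM, log2 fold change -1.09 ± 0.14, q = 7.6e-05). The endothelial Pecam1 had 0.26 ± 0.10 (q = 0.0804). Their part in the change was not tested. The change for ABX on CD passed without CD mouse 1 and without TDD mouse 1 (q down to 0.0278).

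The cyclooxygenases did not pass the test in any comparison. Ptgs1, the constitutive enzyme (chromosome 2, 36230426 to 36252272), was the second of the 10 genes by level, with 17.1 ± 2.41 TPM over 20 mice. It had 25.9 ± 1.85 CPM in CD, 28.7 ± 3.68 in TDD, 24.7 ± 2.93 in CD+ABX and 22.8 ± 4.33 in TDD+ABX mice (SD, n = 5). For ABX on TDD, its log2 fold change was -0.33 ± 0.11 (q = 0.0568). It passed there under 2 of 12 other settings (q from 0.0484 to 0.11) and in 2 of 20 fits that left out 1 mouse, without TDD mouse 4 and without TDD+ABX mouse 4 (-0.43), with q as low as 0.0108. Ptgs2, the inducible enzyme (chromosome 1, 150100031 to 150108227), was low in every group, with 4.65 ± 1.19, 4.56 ± 1.66, 4.08 ± 0.851 and 4.3 ± 2.03 CPM in the same order. Its log2 fold changes were -0.02 ± 0.29 and 0.08 ± 0.29 for diet and -0.19 ± 0.29 and -0.09 ± 0.29 for ABX. Standard errors of this size leave small changes of Ptgs2 undetectable at this number of mice.

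Ptges encodes the microsomal prostaglandin E synthase that works together with the inducible cyclooxygenase (chromosome 2, 30889471 to 30929863, minus strand). It was highest in CD mice, and both TDD and ABX went with a lower level. CD mice had 9.17, 8.84, 9.71, 8.74 and 9.87 CPM (9.27 ± 0.509). TDD mice had 5.87, 6.6, 5.86, 6 and 7.95 CPM (6.46 ± 0.89), and all of them lay below all CD mice. The log2 fold change for diet in SPF mice was -0.52 ± 0.09 (edgeR's quasi-likelihood test, q = 0.00109).

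CD+ABX mice had 6.26, 6.16, 6.57, 5.45 and 5.24 CPM of Ptges (5.94 ± 0.566), again all below the CD mice. For ABX on CD, 2 of the 10 genes passed, 1 higher and 1 lower, where 12.6% of all genes tested passed (5.26% higher and 7.37% lower), and the groups did not overlap for 2 of the 10 and for 9.74% of all genes. Ptges was the lower of these 2, with a log2 fold change of -0.64 ± 0.09 (q = 0.000407). TDD+ABX mice had 4.98, 5.56, 5.91, 5.99 and 5.7 CPM (5.63 ± 0.4), a level that overlapped both TDD and CD+ABX mice. There the log2 fold change was -0.08 ± 0.09 for diet (q = 0.756) and -0.20 ± 0.09 for ABX on TDD (q = 0.155). The 2 passed changes of Ptges passed in each of 20 fits that left out 1 mouse and under each of 12 other settings. The interaction was 0.44 ± 0.13 (unadjusted p = 0.0032, q = 0.258, edgeR's quasi-likelihood test) and did not pass.

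Most markers of macrophages and dendritic cells were also lower where Ptges fell, and in addition with ABX on TDD, where Ptges did not pass. For diet in SPF mice, the dendritic cell genes Xcr1 and Flt3 went the other way without passing. Mean Xcr1 was 2.17 CPM in CD and 2.24 CPM in TDD mice, and mean Flt3 was 2.88 and 3.54 CPM. The sum of 10 such markers was 223 to 285 CPM in CD mice, 130 to 204 in TDD, 160 to 184 in CD+ABX and 130 to 148 in TDD+ABX mice, and none was at 0 in all mice. Of the 10, 6 passed lower for diet in SPF mice, 7 for ABX on CD and 5 for ABX on TDD, for example Csf1r, the receptor that macrophages need to survive, with a log2 fold change of -0.58 ± 0.13 for diet in SPF mice (q = 0.00573) and of -0.80 ± 0.13 for ABX on CD (q = 0.000895). Ptges equalled 3.91 ± 0.334% of this sum in CD, 3.7 ± 0.536% in TDD, 3.51 ± 0.439% in CD+ABX and 3.99 ± 0.443% in TDD+ABX mice (SD, n = 5), and the ranges of the 4 groups overlapped. Of the summed fibroblast and endothelium markers Ptges equalled 3.21 ± 0.504% in CD, 2.48 ± 0.162% in TDD, 2.34 ± 0.325% in CD+ABX and 2.49 ± 0.172% in TDD+ABX mice, with CD mice from 2.33 to 3.58%. The part of these cells in the change of Ptges was not tested.

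Hpgds, the hematopoietic prostaglandin D synthase of mast cells, macrophages and tuft cells (chromosome 6, 65117293 to 65144908, minus strand), did not pass in any comparison. It had 9.23 ± 0.992 CPM in CD mice, 7.61 ± 1.15 in TDD, 7.4 ± 0.702 in CD+ABX and 6.71 ± 0.994 in TDD+ABX mice. Its log2 fold change was -0.28 ± 0.12 for diet in SPF mice (q = 0.128), which passed without CD mouse 2 (-0.35, q = 0.0474). For ABX on CD it was -0.32 ± 0.12 (q = 0.0838), which passed without CD mouse 2 and without TDD mouse 1 (q down to 0.0396). As a share of the summed macrophage and dendritic cell markers, Hpgds stood at 3.9 ± 0.541% in CD, 4.33 ± 0.417% in TDD, 4.37 ± 0.463% in CD+ABX and 4.73 ± 0.563% in TDD+ABX mice. As a share of the summed tuft cell markers it was 16.9 ± 3.38%, 16.5 ± 3.01%, 8.08 ± 2.55% and 9.62 ± 0.855% in the same order.

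Alox5 encodes 5-lipoxygenase, which makes the precursor of all leukotrienes (chromosome 6, 116410077 to 116461178, minus strand), and it was higher with ABX on CD. CD mice had 2.92, 3.42, 2.41, 2.89 and 2.67 CPM (2.86 ± 0.371), and CD+ABX mice had 4.3, 3.62, 8.45, 5.66 and 6.22 CPM (5.65 ± 1.88). All CD+ABX mice lay above all CD mice. Alox5 had a log2 fold change of 0.98 ± 0.22 (edgeR's quasi-likelihood test, q = 0.00758), a fold change of 1.98 and so just short of a call. It passed in each of 20 fits that left out 1 mouse, from 0.80 without CD+ABX mouse 3 to 1.11 without CD+ABX mouse 2. It did not pass on TPM, at 0.57 on log2(TPM + 1) and 0.77 on log2(TPM + 0.1), and q was 0.000447 to 0.0816 over 12 other settings.

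On TDD, mean Alox5 was lower than on CD with and without ABX, but not past the threshold. TDD mice had 1.76, 2.45, 1.53, 2.2 and 2.43 CPM (2.07 ± 0.412), with a log2 fold change for diet of -0.46 ± 0.23 (q = 0.19). TDD+ABX mice had 3.95, 1.98, 3.08, 2.43 and 4.16 CPM (3.12 ± 0.942), with a log2 fold change of -0.86 ± 0.22 for diet (q = 0.0559) and 0.59 ± 0.23 for ABX (q = 0.085). The diet effect with ABX passed with DESeq2 and with limma-voom (q from 0.0101 to 0.309 over 12 other settings), and without CD mouse 2 or CD+ABX mouse 2 (q down to 0.0334), where it was -0.99 without the latter. For diet with ABX, edgeR thus passed 0 of the 10 genes (1 at an unadjusted p under 0.05), where it passed 1.64% of all genes. DESeq2 and limma-voom passed 1 each there and limma on TPM 0. For ABX on TDD, edgeR passed 0 (4 at an unadjusted p under 0.05), where it passed 15.4% of all genes. DESeq2 passed 1 there, limma-voom 2 and limma on TPM 1. For the interaction, edgeR passed 0 (3 at an unadjusted p under 0.05) and the other tools 0, where edgeR passed 0.0368% of all genes. The shares of all genes that the other tools passed are not given here, so their counts stand without a matching share.

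Tuft cell markers were also higher with ABX on CD, and some of them with ABX on TDD, where Alox5 did not pass. The sum of 8 of them was 50.5 to 67.6 CPM in CD mice, 38.5 to 52.4 in TDD, 70.4 to 142 in CD+ABX and 58 to 97.3 CPM in TDD+ABX mice, and none was at 0 in all mice. With ABX on CD, 6 of the 7 that were tested passed higher, among them Trpm5, the cation channel of tuft cell taste signaling (log2 fold change 0.86 ± 0.18, q = 0.00544), and Pou2f3, the factor that specifies tuft cells (0.87 ± 0.17, q = 0.00286). With ABX on TDD 3 passed higher, and for diet none passed, with 1 of 7 at an unadjusted p under 0.05 in SPF mice and 6 of 7 with ABX (edgeR's quasi-likelihood test). Alox5 equalled 5.17 ± 0.48% of the marker sum in CD, 4.42 ± 0.35% in TDD, 5.7 ± 0.328% in CD+ABX and 4.38 ± 0.768% in TDD+ABX mice (SD, n = 5). Single mice lay at 4.4 to 5.59% in CD and 3.98 to 4.71% in TDD mice. With ABX they lay at 5.14 to 5.97% on CD and 3.42 to 5.43% on TDD. The shares in TDD mice thus lay below those in CD+ABX mice without overlap. The part of tuft cells in the change of Alox5 was not tested.

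**Figure D4:**
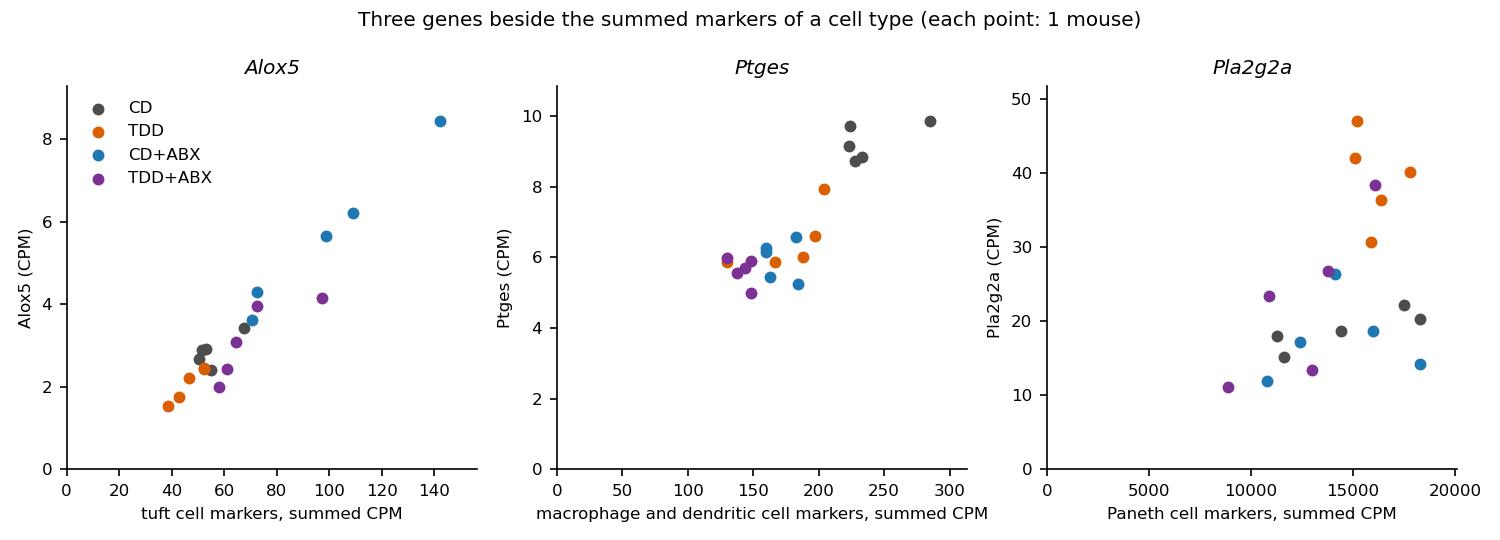
Alox5, Ptges and Pla2g2a in CPM (vertical axes) against the summed CPM of tuft cell, macrophage and dendritic cell, and Paneth cell markers (horizontal axes), with 1 point per mouse and a color per group. Alox5 and the tuft cell sum are both highest in CD+ABX mouse 3, at 8.45 and 142 CPM. Pla2g2a lies at 30.7 to 47 CPM in TDD mice, with Paneth cell sums of 15100 to 17800 CPM. In CD mice it lies at 15.1 to 22.1 CPM, with sums of 11300 to 18300 CPM.

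Ltc4s, which joins glutathione to leukotriene A4 (chromosome 11, 50236461 to 50238616, minus strand), had overlapping levels in all groups, with 3.02 ± 0.694 CPM in CD, 2.93 ± 0.191 in TDD, 2.9 ± 0.729 in CD+ABX and 2.94 ± 0.304 in TDD+ABX mice. Its log2 fold changes were -0.06 to 0.02 with standard errors of 0.16 over the 4 comparisons, and no q was under 0.881. Alox15, the 12/15-lipoxygenase known from macrophages and eosinophils (chromosome 11, 70344152 to 70352031, minus strand), was the lowest of the 10 genes. Its level ran from 0.0614 to 1.76 CPM over the 20 mice, with ranges of 0.22 to 1.14 in CD, 0.1 to 1.76 in TDD, 0.0614 to 0.816 in CD+ABX and 0.0718 to 1.61 in TDD+ABX mice. Of 7 eosinophil markers, 5 were tested, and their list summed to 4.93 to 7.24 CPM in CD, 3.61 to 7.49 in TDD, 6.9 to 16 in CD+ABX and 5.87 to 10.4 CPM in TDD+ABX mice. With ABX on CD only Siglecf passed (4.15 to 8.69 CPM in mean, log2 fold change 1.07 ± 0.25, q = 0.00917), while Prg2 had -0.01 ± 0.24 and Il5ra -1.06 ± 0.53, so the sum followed Siglecf and not the list. For Alox15, the standard errors of the log2 fold changes were 0.72 to 0.78, so a difference of 2-fold was not detectable.

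Between genes, levels were compared as TPM. Over all mice Pla2g2a led with 63.8 ± 28.7 TPM (SD, n = 20), followed by Ptgs1 with 17.1 ± 2.41, Ltc4s with 7.76 ± 1.35, Pla2g4a with 6.5 ± 1.12, Hpgds with 3.38 ± 0.697, Ptges with 2.92 ± 0.685, Alox5 with 2.06 ± 1.05, Pla2g5 with 1.97 ± 0.958, Ptgs2 with 1.32 ± 0.422 and Alox15 with 0.395 ± 0.387 TPM. Pla2g2a lay above Ptgs1, and Ptgs1 above Ltc4s, in every mouse of one against every mouse of the other, whereas from Ltc4s on each gene overlapped the next. In CD mice the order held down to Alox5 (1.68 ± 0.323 TPM, n = 5), and Ptgs2 (1.47 ± 0.322) and Pla2g5 (1.41 ± 0.853) changed places with overlapping ranges. The lower ranks moved with the group: in TDD and TDD+ABX mice Pla2g5 (2.3 ± 1.46 and 2.34 ± 0.559 TPM) stood before Alox5 (1.45 ± 0.351 and 1.94 ± 0.609), and in CD+ABX mice Alox5 (3.15 ± 1.57) stood before Ptges (2.54 ± 0.464), in each case with overlap.

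For each gene, the 3 genes with the most similar pattern were sought among 14039 genes by Pearson's r of log2(CPM + 0.5) over the 20 mice. The groups are part of these patterns and all values come from the same libraries, so r is given as a description. Alox5 had the closest neighbors, namely Trpm5 (r = 0.956, Spearman's rho = 0.881), Avil (0.955, rho = 0.907) and Sh2d7 (0.946, rho = 0.853), 3 genes known from tuft cells, of which Trpm5 and Avil are also in the marker list above. For Ptges they were Acvrl1 (0.922), an endothelial receptor, Vstm4 (0.905) and Gbp4 (0.904), and for Hpgds Mpeg1 (0.885), a macrophage perforin, C3ar1 (0.869) and Ccdc88b (0.868). Pla2g4a ran closest to Col6a2 (0.870) and Mmp2 (0.863), matrix genes of stromal cells, and Pigu (0.855). For these 3, rho was lower, at 0.756, 0.744 and 0.762. Without the 2 mice farthest from the median of Pla2g4a, r was 0.751, 0.721 and 0.686. Pla2g2a ran closest to Defa36 (0.811), a Paneth cell defensin, Ddx50 (0.803) and Nln (0.795), and Pla2g5 to Pus10 (0.888), Rpl14-ps1 (0.834) and Mthfd1l (0.823). Alox15 ran closest to the granin gene Chgb (0.848), Ighv1-74 (0.825) and Jaml (0.802), and Ptgs1 to Sin3b (0.834), Dlgap4 (0.798) and Kdsr (0.795). Ptgs2 ran closest to Bcorl1 (0.782) and to the immediate early genes Fosb (0.782) and Egr1 (0.740). The weakest neighbors were those of Ltc4s, with Yif1a (0.743), Lrrc20 (0.683) and Fmc1 (0.677).

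Around these 10 genes, 61 further genes of the pathway were listed, of which 53 were tested and 23 passed in at least 1 comparison. In SPF mice, TDD went with 5 that passed higher and 6 lower, where 14.4% of all genes passed (median log2 fold change -0.03). With ABX 1 passed lower for diet, where 1.64% of all genes passed (median -0.04). For ABX on CD 5 passed higher and 7 lower, where 12.6% of all genes passed (median -0.05), and on TDD 5 higher and 5 lower, where 15.4% passed (median -0.07). The interaction passed for none of them (edgeR's quasi-likelihood test, 2 at an unadjusted p under 0.05).

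**Figure D5:**
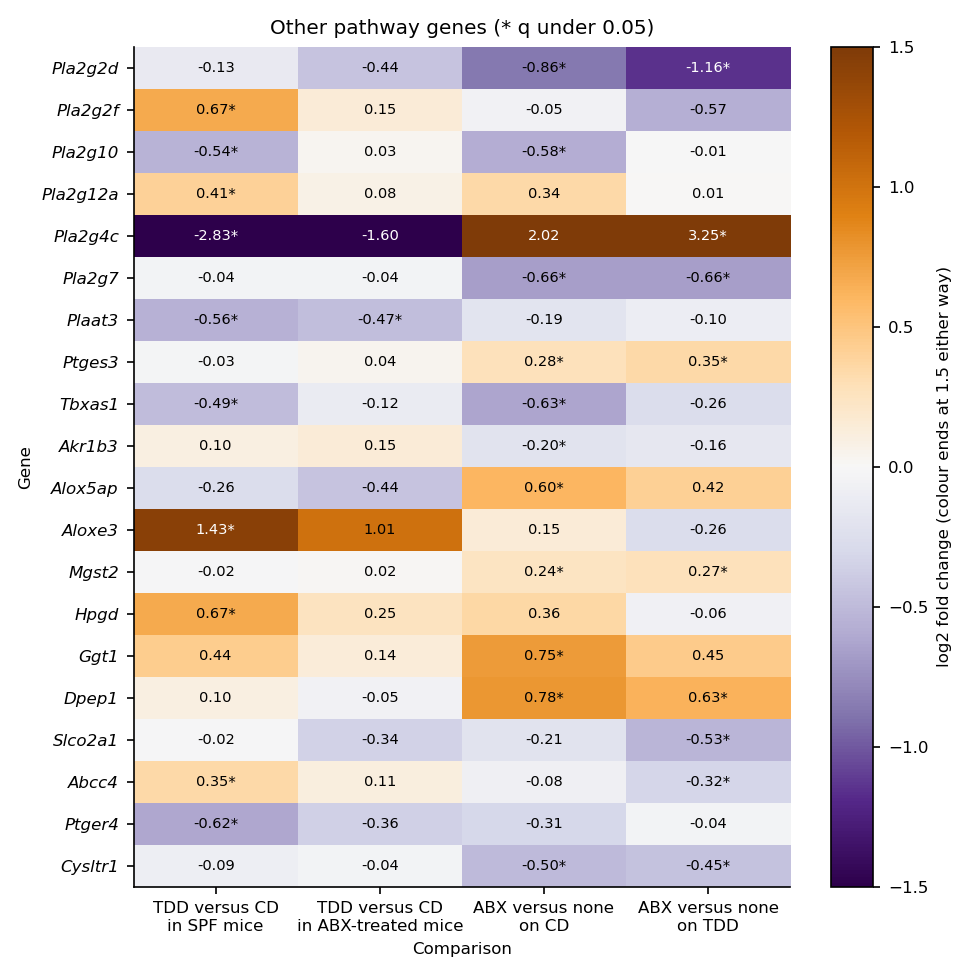
Log2 fold change (color and printed value) of 20 further pathway genes (rows) in the 4 comparisons (columns), with an asterisk for q under 0.05. The color ends at 1.5 either way, so Pla2g4c is shown at its end, and asterisks stand in both directions in 3 of the 4 columns.

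Among the other phospholipases A2, 2 of 16 tested passed higher and 4 lower on TDD in SPF mice, where 6.65% of all genes passed higher and 7.71% lower. Pla2g2f, a secreted neighbor of Pla2g2a in the same cluster (chromosome 4, 138750533 to 138757626), rose from 8.07 ± 2.14 to 12.8 ± 1.58 CPM (log2 fold change 0.67 ± 0.20, q = 0.0333), and Pla2g12a from 4.76 ± 0.917 to 6.3 ± 0.553 CPM (0.41 ± 0.12, q = 0.0232). Pla2g10, another secreted enzyme, fell by 0.54 on the log2 scale (q = 0.0438), and Plaat3, a phospholipase of adipose and other tissues, fell from 25 ± 4 to 17 ± 2.1 CPM (-0.56 ± 0.11, q = 0.00223). Plaat3 was also the 1 pathway gene that passed for diet with ABX (-0.47 ± 0.11, q = 0.0364). That result was lost in 8 of 20 fits that left out 1 mouse (q up to 0.106) and under 1 of 9 other settings (q = 0.0802). Pla2g4c, a calcium-independent relative of Pla2g4a, fell from 4.8 ± 3.74 CPM (1.65 to 10.5) to 0.675 ± 0.0801 CPM (log2 fold change -2.83 ± 0.85, q = 0.0325). Without CD mouse 5 the change for diet was -2.33 and did not pass (q = 0.1). Pla2g4c was at 6.45 ± 7 CPM (1.34 to 17.4) in TDD+ABX mice, a log2 fold change of 3.25 ± 0.85 over TDD mice (q = 0.0175), and both changes missed the threshold with limma-voom (-2.50 and 2.47). The fourth gene that passed lower, Pla2g1b, was named after its values were seen: 28 of its counts came from CD mouse 5 and at most 2 from any other mouse, with 0 in all TDD mice, so no fold is given.

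With ABX, Pla2g2d, a secreted enzyme of dendritic cells that lies next to Pla2g5 (chromosome 4, 138775735 to 138782046), fell from 6.37 ± 0.764 to 3.51 ± 1.06 CPM on CD (-0.86 ± 0.27, q = 0.0441) and from 5.82 ± 1.95 to 2.6 ± 1.02 CPM on TDD (-1.16 ± 0.28, q = 0.01). Pla2g7, the platelet-activating factor acetylhydrolase of macrophages, fell by the same size on either diet, from 17.3 ± 1.74 to 10.9 ± 0.84 CPM on CD (-0.66 ± 0.12, q = 0.00221) and from 16.8 ± 3.78 to 10.6 ± 1.21 CPM on TDD (-0.66 ± 0.12, q = 0.00245). Pla2g10 passed lower on CD (-0.58 ± 0.18, q = 0.0346), as did the lysosomal enzyme Pla2g15 (-0.39 ± 0.13, q = 0.0465), which was named after its values were seen. Of the 10 macrophage and dendritic cell markers given above, 7 passed lower with ABX on CD and 5 on TDD. For diet in SPF mice 6 of them passed lower, as did Pla2g10, but Pla2g7 and Pla2g2d did not pass. There mean Pla2g7 was 17.3 CPM in CD and 16.8 CPM in TDD mice, and mean Pla2g2d was 6.37 and 5.82 CPM. The part of these cells in the changes was not tested.

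Of 6 other prostanoid synthases tested, Tbxas1, the thromboxane synthase, fell together with Ptges. It went from 5.52 ± 0.376 CPM in CD to 3.92 ± 0.634 in TDD mice (-0.49 ± 0.11, q = 0.00716) and to 3.57 ± 0.403 in CD+ABX mice (-0.63 ± 0.11, q = 0.00173), with no overlap with CD mice in either. Akr1b3 was lower with ABX on CD (-0.20 ± 0.06, q = 0.0361). Ptges3, the cytosolic prostaglandin E synthase and a cochaperone, was higher with ABX on CD (0.28 ± 0.08, q = 0.023) and on TDD (0.35 ± 0.08, q = 0.00667).

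Among 6 other lipoxygenase and leukotriene genes tested, Alox5ap, the protein that presents arachidonic acid to 5-lipoxygenase, passed higher with ABX on CD, as Alox5 did. It rose from 3.23 ± 0.417 to 4.89 ± 1.64 CPM (0.60 ± 0.19, q = 0.0456). Mgst2, a microsomal transferase that can also make leukotriene C4, was higher with ABX on CD (0.24 ± 0.07, q = 0.0363) and on TDD (0.27 ± 0.07, q = 0.0159), where Mgst3, named after its values were seen, passed as well (0.19 ± 0.06, q = 0.0469). Aloxe3, an epidermal-type lipoxygenase, rose from 0.254 ± 0.116 to 0.695 ± 0.18 CPM on TDD in SPF mice (1.43 ± 0.38, q = 0.015).

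Of 13 genes for breakdown and transport, Hpgd, the dehydrogenase that inactivates prostaglandin E2, rose from 236 ± 66.3 to 375 ± 45.7 CPM on TDD in SPF mice (0.67 ± 0.15, q = 0.00623), where Ptges fell. Abcc4, an exporter of prostaglandins, was higher on TDD in SPF mice (0.35 ± 0.10, q = 0.0219) and lower with ABX on TDD (-0.32 ± 0.10, q = 0.0331). Slco2a1, the prostaglandin importer, fell from 90.6 ± 14.8 to 62.8 ± 4.82 CPM with ABX on TDD (-0.53 ± 0.14, q = 0.02). Of the peptidases known to convert cysteinyl leukotrienes, Ggt1 and Dpep1 rose with ABX. Ggt1 rose to 502 ± 122 CPM on CD (0.75 ± 0.15, q = 0.00433). Dpep1 rose from 374 ± 70.7 to 644 ± 125 CPM on CD (0.78 ± 0.14, q = 0.00129) and from 401 ± 52.1 to 620 ± 63.3 CPM on TDD (0.63 ± 0.14, q = 0.00575). Ggt5 and Dpep2, named after their values were seen, did not pass. Mean Ggt5 was 9.26 CPM in CD, 7.55 in CD+ABX, 9.78 in TDD and 8.41 CPM in TDD+ABX mice. Mean Dpep2 was 1.49, 1.13, 1.17 and 1.18 CPM in the same order.

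Of 12 receptors tested, Ptger4, a prostaglandin E2 receptor, fell from 25 ± 7.59 to 16.2 ± 2.26 CPM on TDD in SPF mice (-0.62 ± 0.19, q = 0.0365). Cysltr1, a receptor for cysteinyl leukotrienes, fell with ABX from 4.41 ± 0.524 to 3.12 ± 0.349 CPM on CD (-0.50 ± 0.13, q = 0.0153) and from 4.15 ± 0.467 to 3.03 ± 0.526 CPM on TDD (-0.45 ± 0.13, q = 0.0241). When single mice were left out, 4 of the 11 pathway genes that passed for diet in SPF mice passed in every fit (Plaat3, Tbxas1, Aloxe3 and Hpgd). So did 5 of 12 for ABX on CD (Pla2g7, Tbxas1, Ggt1, Dpep1 and Cysltr1) and 6 of 10 for ABX on TDD (Pla2g2d, Pla2g4c, Pla2g7, Ptges3, Mgst2 and Dpep1). The others were lost in some fits, such as Alox5ap in 12 of 20 (q up to 0.15), Pla2g2d on CD in 11, Pla2g2f in 8 and Ptger4 in 6. Under other settings, Alox5ap passed in 5 of 12, Akr1b3 in 7, Pla2g15 on CD, Pla2g4c and Ptger4 for diet and Abcc4 and Cysltr1 for ABX on TDD in 8 each, and Pla2g1b in 4 of 11.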

How the data were processed

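Whole ileum of 20 mice was measured by poly-A RNA-seq (Illumina NovaSeq). The authors assigned reads to mouse transcripts (GRCm38) with kallisto 0.44.0, which splits reads between transcripts, and deposited a table of unnormalized estimated counts by gene. For every mouse they also deposited a file of transcripts with estimated counts and TPM. How libraries were stranded is not given in the sources used here. Of 113193 transcripts, 111450 matched GENCODE M21, the source of names and coordinates. Gene counts of the 10 genes equalled the sums of their transcripts. The setting with counts summed over transcripts could thus hardly change their results, but it is counted among the other settings.

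Estimated counts were rounded and scaled by TMM. Testing covered 16306 genes, those that reached 0.5 CPM in 1 mouse or more. The test was edgeR 4.0.16's quasi-likelihood test with robust spread (R 4.3.3), with the 4 groups in 1 fit, two-sided, with Benjamini-Hochberg adjustment. The study names iDEP.91, FDR 0.05 and a fold change of 2, but not the test. Alternatives used DESeq2 1.42.0 and limma 3.58.1 (voom, and log2(TPM + 1) or log2(TPM + 0.1)). The steps were tested on simulated data. Gene TPM were sums over transcripts. At totals of 36676963 to 58662617 counts per mouse, counting error weighs most on genes near or under 1 CPM. The 10 genes and all lists were chosen with earlier results of these data known. Named pathway genes are the 20 with the smallest q among those under 0.05 in at least 1 comparison. Similar genes needed a mean of at least 1 CPM and were compared as log2(CPM + 0.5).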

Additional observations from a re-analysis of the deposited data

Results flagged for a closer look

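Of 40 groups of 5 mice (10 genes in 4 groups), 3 held a mouse whose distance from the nearest other mouse exceeded Dixon's 95% limit, a rule that chance meets in about 1 of 20 groups. Ptgs1 was at 22.3 CPM in TDD mouse 4, below the other 4 TDD mice. Alox15 was at 0.816 CPM in CD+ABX mouse 1 and at 1.61 CPM in TDD+ABX mouse 1, each far above the other mice of its group. The cause was not tested.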

How the results depend on the processing

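Over the 50 results for the 10 genes (4 comparisons and the interaction), 570 values under other settings and 949 values with 1 mouse left out kept their direction and side of the threshold. Under other settings 11 passed newly, 5 no longer passed and 9 turned sign. With 1 mouse left out, 12 passed newly, 1 was lost and 38 turned sign, all 38 in results that did not pass. The cause was not tested.

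Sign turned for Ptgs2 for diet in SPF mice with a replicate block (0.00) and with ABX by limma-voom (-0.01), for Ptges for diet with ABX on log2(TPM + 1) (0.04) and log2(TPM + 0.1) (0.06), for Pla2g5 for ABX on TDD on the same scales (0.10 and 0.19), for Ltc4s for ABX on TDD with upper-quartile scaling (-0.01) and limma-voom (-0.00) and for the interaction of Alox15 on log2(TPM + 1) (-0.06). With 1 mouse left out, the ranges that crossed 0 were, for diet in SPF mice, -0.26 to 0.12 for Ptgs2 and -0.11 to 0.10 for Ltc4s, for diet with ABX -0.12 to 0.24 for Ptgs2, -0.09 to 0.12 for Ltc4s and -0.07 to 0.03 for Pla2g4a, for ABX on CD -0.16 to 0.09 for Ltc4s and -0.28 to 0.02 for Pla2g2a, for ABX on TDD -0.28 to 0.15 for Ptgs2, -0.04 to 0.07 for Ltc4s, -0.02 to 0.13 for Pla2g4a and -0.34 to 0.11 for Pla2g5, and for the interaction -0.09 to 0.34 for Ptgs2, -0.09 to 0.17 for Ltc4s and -0.65 to 0.98 for Alox15.

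Of the 10 genes, 2 were called for diet in SPF mice, 1 on either TPM scale, 4 with no fold change limit and 1 to 2 with 1 mouse left out. For ABX on CD 0 were called, 2 with no limit and 0 to 1 with 1 mouse left out, and for ABX on TDD 0 to 1 with 1 mouse left out. Over all genes, 298 were called for diet in SPF mice (140 on log2(TPM + 1), 2342 with no limit, 215 to 360 with 1 mouse left out), 50 for diet with ABX (98 by DESeq2, 25 on log2(TPM + 1), 268 with no limit, 25 to 59), 367 for ABX on CD (131, then 2059 with no limit, 272 to 391) and 265 for ABX on TDD (98, then 2505, 163 to 421). For the interaction 4 were called (51 by DESeq2, 0 to 12 with 1 mouse left out) and 0 with RLE scaling, a filter of 5 mice, no filter, limma-voom or counts summed over transcripts. Of the calls for ABX on TDD 22.6% were higher, against 46.9% on log2(TPM + 1) and 40.2% on log2(TPM + 0.1), and for diet with ABX 48%, against 60% on log2(TPM + 1).

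Replicate numbers did not pair the mice: of 30 pairs of groups and numbers, 5 had correlated deviations over 0.1 (r from -0.355 to 0.248), and 1 of 20 mice was most like a mouse of its own number. With the replicate block, 27 genes were called for diet with ABX and 0 for the interaction, and Pla2g2a passed for ABX on TDD (-0.86, q = 0.0433). The fit without the robust spread estimate and the one without transcripts spanning Pla2g2a were added after the data were seen. The interaction has no fit of only the groups compared, and Pla2g2a would keep no transcript if those overlapping Pla2g5 were left out.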
